A study of Mus musculus with 3 samples.

Results

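The Wnt pathway genes described here were 79 probes of 56 genes among the 41174 probes of a mouse whole-genome array, which carry 27845 different names of genes or clones in all. They were found by gene name, with no measured value in the rule, which was written with earlier results of these data known. By role they were 23 probes of 19 Wnt ligands, 7 probes of 4 R-spondins, 1 probe of Porcn, 16 probes of 10 Frizzled receptors, 1 probe each of the co-receptors Lrp5 and Lrp6, 7 probes of 6 Wnt-binding antagonists (the Sfrp family, Frzb and Wif1), 8 probes of 6 Dkk and Kremen genes, 6 probes of the 5 cytoplasmic genes Axin1, Axin2, Dvl1, Dvl2 and Dvl3, and 9 probes of the 3 TCF/LEF factors Lef1, Tcf7 and Tcf7l2. The name Tcf7l1 was also searched for and was carried by no probe.

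The tissue was the choroid plexus epithelium (CPE), the cell layer that makes the cerebrospinal fluid, taken from 3 healthy adult C57BL/6 mice. The epithelium of the lateral ventricles was laser dissected from frozen brain sections of 20 µm, and its amplified RNA was labelled with the red dye, Cy5. On each of the 3 arrays, 1 per mouse, it was hybridised together with a common reference, RNA of the retinal pigment epithelium and choroid (RPE/choroid) of wild-type C57BL/6 mice, which carried the green dye, Cy3. Neither tissue was treated or genetically altered, so the comparison is of 1 tissue with another, and since the dyes were never swapped, a probe's preference for a dye and a difference between the tissues cannot be told apart.

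Wnt ligands are secreted, lipid-modified proteins that bind a Frizzled receptor together with Lrp5 or Lrp6. In the canonical branch this recruits Dishevelled and Axin to the membrane, the destruction complex stops degrading beta-catenin, and beta-catenin enters the nucleus, where it works with TCF/LEF factors. R-spondins strengthen the signal by keeping receptors at the surface, Sfrp proteins, Frzb and Wif1 bind the ligands themselves, and Dkk proteins act on Lrp5 and Lrp6, in part with Kremen. In the embryo, the dorsal midline of the brain from which the choroid plexus arises is a known source of Wnt ligands and BMPs.

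The samples carried the genes of their labelled tissues. Of 15 CPE markers, 14 were on the array and 13 were higher in CPE, and Otx2, which the RPE also expresses, was the exception at a log2 ratio of 0.14. Of the RPE and melanocyte markers, 10 of 11 were lower in CPE, with a summed CPE level of 18262 to 21843 against 281668 to 314700 in the reference. Tyr was well above background in CPE on no array, but the other 10 were on all arrays, and 3 were in the high class. All 8 photoreceptor markers tested were lower in CPE as well, with a summed level of 5011 to 6789 against 173056 to 178080 in the reference. These 8 were also well above background in CPE on all arrays, with 1 in the high class. The reference thus carried photoreceptor signal besides that of its labelled tissue. Of 8 neuron markers, 5 were lower in CPE. Of 5 ependymal markers tested, the cilium genes Foxj1, Tekt1 and Rsph1 were higher in CPE (summed level of the list 9204 to 14137 against 6118 to 7627). The others were not: Rarres2 was below 0 in every mouse, at a mean log2 ratio of -0.74. The cilium gene Dnah5, well above background in CPE on 1 array only, was at -0.01. Over all genes tested, 7.98% were higher in CPE and 11.1% lower. The arrays differed in signal over background: the CPE channel was well above background for 58.5%, 46% and 85.6% of all probes in mice 1, 2 and 3.

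The first question was which Wnt pathway transcripts could be measured at all. In the CPE channel, 48, 32 and 69 of the 79 probes were well above background in mice 1, 2 and 3, and in the reference channel 63, 58 and 71. In CPE, 31 probes (39.2%) passed on all arrays, beside 44.9% of all probes, and 8 (10.1%) passed on none, beside 12.1% of all probes. In the reference, 50 (63.3%) passed on all arrays, beside 61.5%. Mouse 3 had the most Wnt pathway probes above background, as it did over all probes. The 8 probes that passed in CPE on no array were both probes of Dkk1 and the probes of Dkk2, Sfrp4, Wnt1, Wnt10a, Wnt2b and Wnt3a.

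Percentile ranks place a probe's CPE intensity among all probes of the array, and follow the classes of the study: a probe is high past percentile 90, moderate between 50 and 90, low between 10 and 50, and very low under 10. Since probes differ in how well they hybridise, a rank says nothing of which of 2 genes had more transcripts. Of the 79 probes, 2 were in the high class (2.53%, beside 10% of all probes by construction), 37 in the moderate, 37 in the low and 3 in the very low class. Both high probes were of Frizzled receptors. Fzd7 lay at percentiles 95.3, 94.0 and 94.5 in mice 1, 2 and 3, and Fzd4, the receptor known for retinal and brain vessel growth, at 90.9, 89.9 and 90.9. A second Fzd7 probe, well above background in CPE on 2 arrays, lay at 37.9, 4.99 and 19.4, in the low class. The class of a probe is that of the rank of its log2 intensity averaged over the mice, which is not the mean of the 3 percentiles. By that rank, Lrp5 at 89.8, Lef1 at 89.7 and Sfrp1 at 89.6 were just below the limit. By the same rank, Dkk2 at 7.38, Wnt2b at 7.40 and Wnt3a at 2.77 were very low, although not in every mouse: Dkk2 lay at 9.68, 26.0 and 6.29, Wnt2b at 9.08, 13.6 and 10.2, and Wnt3a at 8.32, 14.6 and 1.77. The position of a probe near a class limit differed between mice: Lrp5 ranged from 83.3 in mouse 1 to 94.4 in mouse 3.

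**Figure D1:**
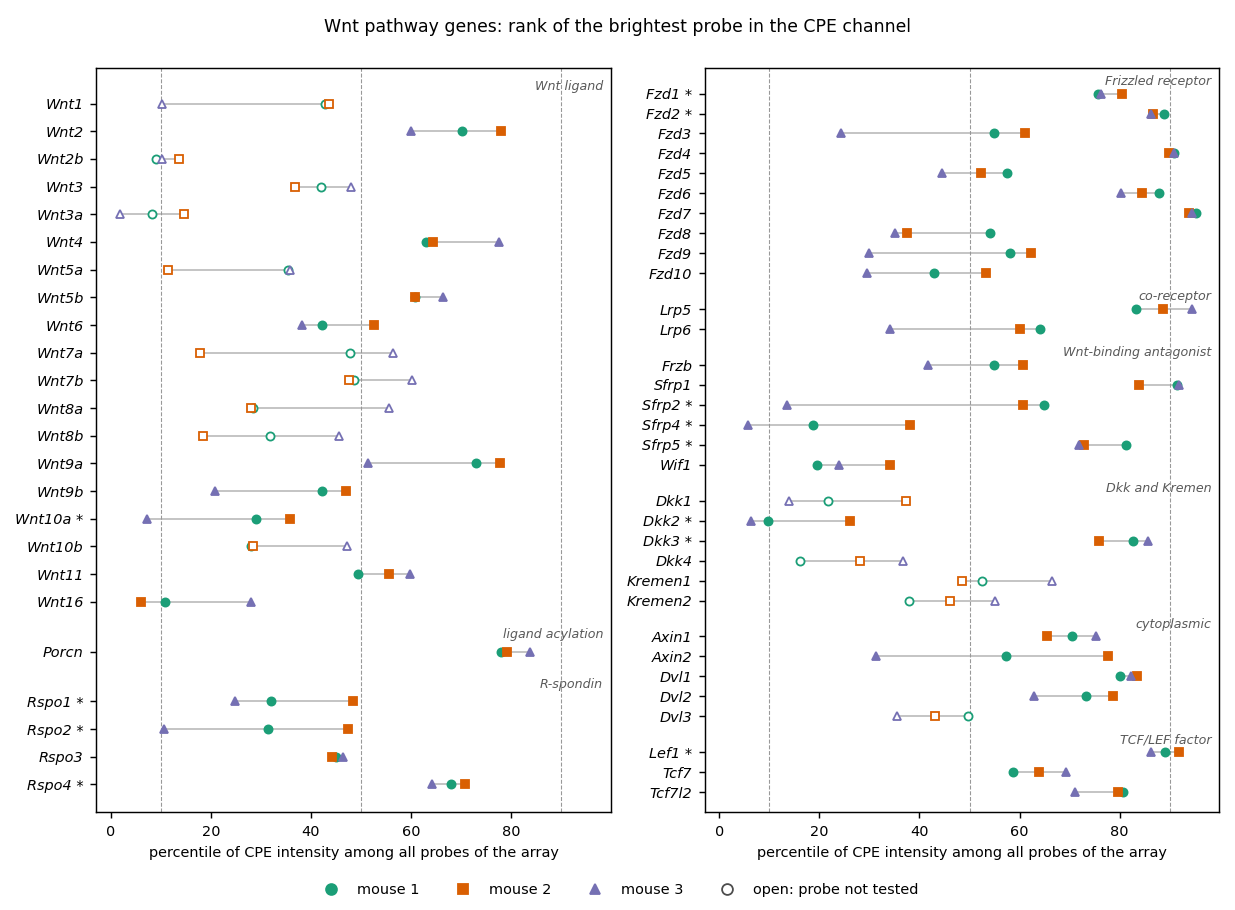
Percentile of the CPE intensity among all probes of the array (x axis, %) for the brightest probe of each of the 56 Wnt pathway genes, grouped by role. Each symbol is 1 mouse, open symbols are probes that were not tested against the reference, dashed lines are the class limits at 10, 50 and 90, and * marks a ratio past the threshold. Fzd7 lies above 90 in every mouse, while several ligands and antagonists spread over much of the axis, with Sfrp2 between 13.4 and 65.0.

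The second question was how these levels compared with the RPE/choroid reference. A probe was tested if either channel was well above background on each of the 3 arrays, and it was called higher or lower at an adjusted p under 0.05 (limma, Benjamini-Hochberg over all 25843 probes tested) with a change of at least 2-fold. Of the 79 probes, 52 of 42 genes were tested and 27 were not. Of the 52, 12 (23.1%) were called, beside 17.3% of all probes tested. The called probes comprised 4 higher in CPE (7.69%, beside 7.09% of all probes) and 8 lower (15.4%, beside 10.2%), each of a different gene. Of the 8 lower probes, 6 (Dkk2, Sfrp2, Sfrp4, Wnt10a, Rspo1 and Rspo2) passed the filter through the reference channel alone, where they were brighter. Among the 29 probes for which CPE and reference both passed on every array, 4 were higher and 2 lower. Of all 17947 probes that passed so, 9% were higher and 11.3% lower. The higher genes were Lef1, Rspo4, Fzd2 and Sfrp5, and the lower genes were Dkk3, Dkk2, Sfrp2, Fzd1, Sfrp4, Wnt10a, Rspo1 and Rspo2. The median log2 ratio of the 52 probes was 0.02, beside -0.04 over all probes tested. Each of the 12 called probes had the same sign in all 3 mice, as 36 of the 52 (69.2%) did and 65.4% of all probes tested. In such dissected tissue, fewer cells of a type and less RNA per cell cannot be told apart.

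The number of higher calls depended on the scaling and on mouse 1. With each array's ratios centred on their median in place of the loess curve, 9 Wnt pathway probes were higher and 9 lower, as the share of higher calls over all probes went from 41.1% to 67% and the median ratio of all probes from -0.04 to 0.09. Without mouse 1, 2 probes were higher and 6 lower, beside 5.47% higher and 9.91% lower of all probes.

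**Figure D2:**
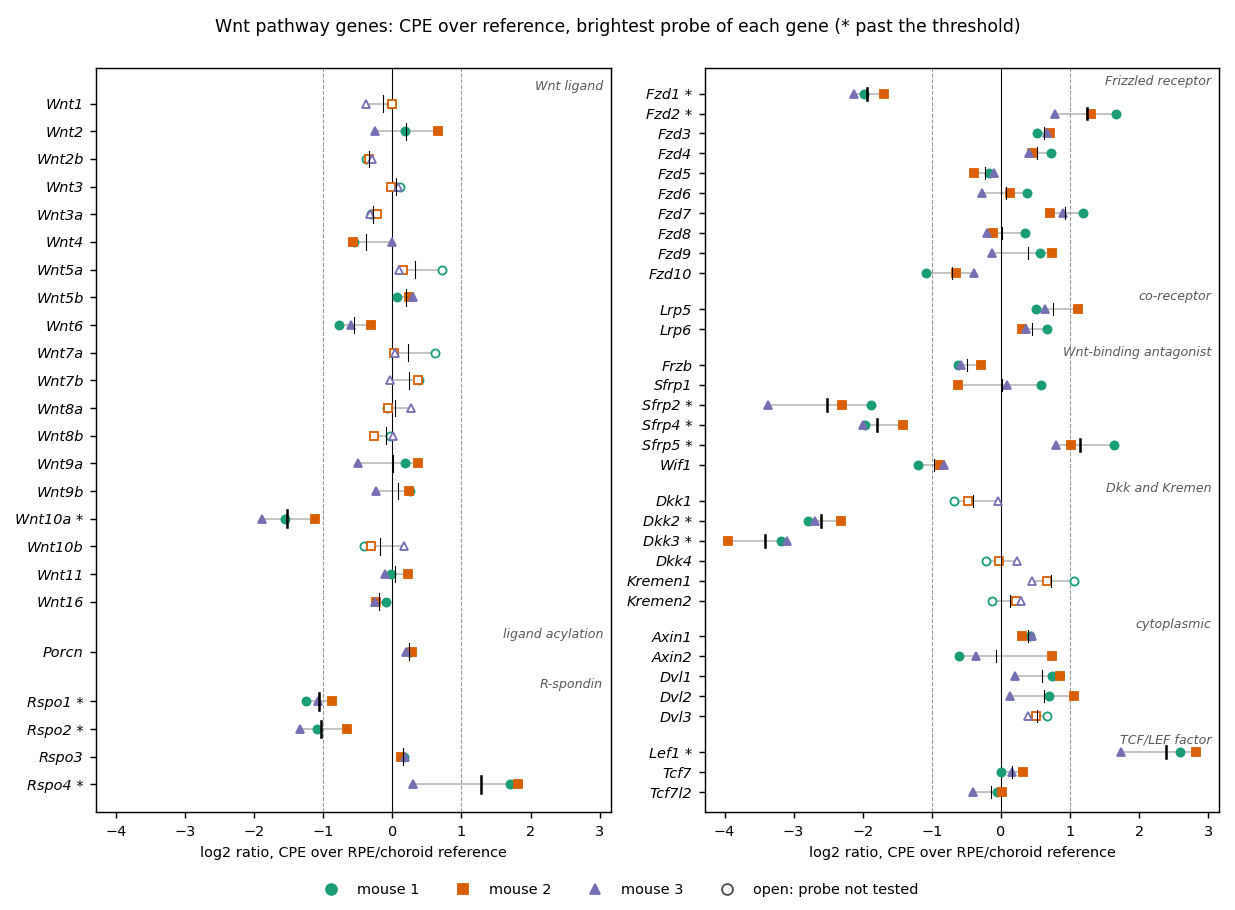
Log2 ratio of CPE over the RPE/choroid reference (x axis) for the brightest probe of each Wnt pathway gene, by role. Symbols are the 3 mice, the vertical tick is their mean, the dashed lines mark a 2-fold change, open symbols are probes not tested and * marks genes past the threshold. Dkk3 lies to the left of -3 in every mouse and Lef1 is the farthest to the right, and most ligands lie within the dashed lines.

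Among the ligands, Wnt10a, which is known for its part in tooth, hair and skin development, was the 1 gene called of 9 with a tested brightest probe, and it was lower in CPE. Its log2 ratios were -1.56, -1.12 and -1.88 in mice 1, 2 and 3, a mean of -1.52 ± 0.19 (SE, n = 3, adjusted p = 0.000718). All 3 mice lay below the 2-fold line. Its probe (chr1:74737266-74737325, + strand, mouse build mm8) was not well above background in CPE on any array, so a bound was computed for the mean ratio. The bound was 2.87-fold, equal to the measured mean fold. It does not include the spread between mice and is no minimum for each mouse: mouse 2, at -1.12, was closer to the reference. Such a bound divides the mean reference level by a mean CPE level in which no array may fall under the dimmest signal that still counted as well above background there, both after loess and Aquantile, and it is open to dye bias.

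The other ligands were close to the reference or too dim to test. The 10 ligand probes tested and not called had mean log2 ratios from -0.56 to 0.30. Wnt6 was at -0.77, -0.31 and -0.59 in the 3 mice (mean -0.56, adjusted p = 0.0294), below 0 in every mouse but under 2-fold, and its other probe, which overlaps none of the same bases, had a mean of 0.06. Wnt4 was at -0.55, -0.57 and -0.01 (95% interval of the mean -0.78 to 0.03). Wnt2 was at 0.19, 0.66 and -0.25, and Wnt9a at 0.18, 0.37 and -0.50, so that mouse 3 lay on the other side of 0 from mice 1 and 2 for both. Wnt5b, a ligand mostly known for signaling without beta-catenin, was above 0 in every mouse by both of its probes, with means of 0.20 and 0.30, neither of which passed the test (adjusted p = 0.331 and 0.179). The probes of Wnt1, Wnt2b, Wnt3, Wnt3a, Wnt5a, Wnt7a, Wnt7b, Wnt8a, Wnt8b and Wnt10b, with a second probe of Wnt3 and of Wnt9a, were not tested, and give no evidence on whether these genes differ. Porcn, the enzyme that attaches the lipid to Wnt proteins, had log2 ratios of 0.25, 0.28 and 0.19 (mean 0.24, 95% interval -0.10 to 0.59), with the mice differing by less than 0.1.

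The 4 R-spondins, secreted proteins that amplify Wnt signals through Lgr receptors, split in direction. Rspo4, known for its role in nail formation, was higher in CPE, with log2 ratios of 1.70, 1.83 and 0.30 and a mean of 1.28 ± 0.29 (SE, n = 3, adjusted p = 0.0115). The SD between the mice was 0.85: mice 1 and 2 were past 2-fold and mouse 3 was not. The call was lost without mouse 1, at a mean of 1.06 (adjusted p = 0.0556), and a second Rspo4 probe, too dim to test, had a mean of 0.03. Rspo1 was lower, at -1.24, -0.87 and -1.08 (mean -1.06 ± 0.16, adjusted p = 0.00175), and so was Rspo2, at -1.09, -0.66 and -1.34 (mean -1.03 ± 0.18, adjusted p = 0.00353). Both lay close to the 2-fold limit and fell inside it without mouse 1, at -0.975 and -0.999, and Rspo2 also without mouse 3, at -0.88. In CPE each of these probes was well above background on 1 array only. A second Rspo2 probe, not tested, was at -0.26, -0.11 and 0.28, with a mean of -0.03. Rspo3 was at 0.16, 0.12 and 0.18 (95% interval -0.19 to 0.50).

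All 10 Frizzled receptors, the membrane receptors of the ligands, had a tested brightest probe. Fzd2 was higher in CPE and Fzd1 lower, and the other 8 were not called. Fzd2 had log2 ratios of 1.67, 1.30 and 0.78 and a mean of 1.25 ± 0.20 (SE, n = 3, adjusted p = 0.00233). A second Fzd2 probe was at 0.75, 1.30 and 0.11, with a mean of 0.72 (adjusted p = 0.0406), the same direction but under 2-fold, and was called without mouse 3 at 1.03. Fzd1 was at -1.98, -1.70 and -2.13 with a mean of -1.93 ± 0.16 (adjusted p = 0.000119), all 3 mice well past 2-fold. Fzd1 and Fzd2 are close relatives in sequence, and so is Fzd7. Fzd7 was at 1.19, 0.70 and 0.90, with a mean of 0.93 (adjusted p = 0.00378), just under 2-fold and higher in every mouse, and it was called without mouse 2 at 1.05. Its second probe, not tested, was at 0.71, 0.04 and -0.31.

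Other receptors above 0 in every mouse were Fzd3, at 0.51, 0.71 and 0.66 (mean 0.63, adjusted p = 0.014), and Fzd4, at 0.72, 0.45 and 0.41 (mean 0.53, adjusted p = 0.0316). A second Fzd3 probe, not tested, was at 0.22, -0.09 and 0.11. Fzd10 was below 0 in every mouse, at -1.08, -0.66 and -0.39 (mean -0.71, adjusted p = 0.0172), and so was Fzd5, at a mean of -0.23 (adjusted p = 0.289). Second probes of these genes, not tested, differed: that of Fzd10 was above 0 in every mouse, at 0.58, 0.25 and 0.13. That of Fzd5 was at 0.39, 0.10 and -0.18. Fzd6, Fzd8 and Fzd9 changed sign between mice. The co-receptor Lrp5 was at 0.51, 1.11 and 0.64 (mean 0.75, adjusted p = 0.0121) and Lrp6 at 0.67, 0.30 and 0.36 (mean 0.45, adjusted p = 0.0589), both above 0 in every mouse and neither 2-fold. With median centring, Fzd4 at 1.11, Lrp5 at 1.24 and Fzd7 at 1.59 were called higher too.

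The promoter of Fzd1 is shown because its gene had the largest receptor difference and because its window holds a TCF/LEF core motif, in capitals, CTTTGA or TCAAAG on the other strand. The window is the 250 bases before the RefSeq start on GRCm38.p6, chr5:4758217-4758466, - strand, 5′ to 3′, and the match begins 242 bases before the start.
Fzd1: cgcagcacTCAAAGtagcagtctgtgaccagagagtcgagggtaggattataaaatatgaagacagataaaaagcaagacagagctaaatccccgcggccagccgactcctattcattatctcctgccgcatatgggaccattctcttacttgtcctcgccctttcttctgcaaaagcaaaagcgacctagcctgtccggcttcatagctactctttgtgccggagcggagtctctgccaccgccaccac
Over all RefSeq promoter windows of this length, 13.8% of 32851 hold the motif on either strand, and of the 45 windows found for 37 of the 56 Wnt pathway genes, 6 (13.3%) hold it. A match is a description of these letters and not a binding site.

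The antagonists that bind Wnt ligands were called in both directions. Sfrp5 was higher in CPE, at 1.63, 1.01 and 0.79 with a mean of 1.15 ± 0.20 (SE, n = 3, adjusted p = 0.00333). Mouse 1 was the highest of the 3, and without it the mean was 0.90, under 2-fold. Sfrp2 was lower, at -1.87, -2.30 and -3.37 with a mean of -2.52 ± 0.27 (adjusted p = 0.000409), so that even the mouse closest to the reference was past 2-fold, and its CPE signal was well above background on 2 of 3 arrays. Sfrp4 was also lower, at -1.96, -1.41 and -1.998 with a mean of -1.79 ± 0.18 (adjusted p = 0.000263). Its probe was well above background in CPE on no array. The bound on its mean ratio was 3.46-fold, equal to the measured mean fold, and mouse 2, at -1.41, was closer to the reference.

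Wif1, which binds Wnt ligands through a domain of its own, lay just inside the limit, at -1.20, -0.88 and -0.83 (mean -0.97, adjusted p = 0.00275), and was called without mouse 2 at -1.02 and without mouse 3 at -1.04. Frzb was at -0.63, -0.29 and -0.58 (mean -0.50, adjusted p = 0.0393). Sfrp1, near the high class in CPE, had no settled direction: its brighter probe was at 0.58, -0.63 and 0.09, and the other at -0.28, -1.80 and 0.37. The second of these had the largest spread of all Wnt pathway probes tested, with an SD of 1.11 between mice. Mouse 2 was the lowest by both Sfrp1 probes.

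The promoter windows of Sfrp5 and Sfrp2, antagonists of the same family that were called in opposite directions, are given for comparison (RefSeq, GRCm38.p6, 250 bases before the start, 5′ to 3′). Sfrp5 is at chr19:42202253-42202502 on the - strand and Sfrp2 at chr3:83766071-83766320 on the + strand. Neither holds the TCF/LEF core motif, so no letter is in capitals.
Sfrp5: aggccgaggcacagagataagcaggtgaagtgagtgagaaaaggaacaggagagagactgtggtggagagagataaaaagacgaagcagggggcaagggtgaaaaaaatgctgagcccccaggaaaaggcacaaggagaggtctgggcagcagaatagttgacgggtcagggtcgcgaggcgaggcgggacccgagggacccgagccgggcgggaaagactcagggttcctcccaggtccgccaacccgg
Sfrp2: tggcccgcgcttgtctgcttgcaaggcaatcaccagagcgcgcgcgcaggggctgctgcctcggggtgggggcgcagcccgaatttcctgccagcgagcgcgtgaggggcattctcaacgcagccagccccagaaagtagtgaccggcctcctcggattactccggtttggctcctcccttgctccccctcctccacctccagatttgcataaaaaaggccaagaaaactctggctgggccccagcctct

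Dkk3 and Dkk2 were lower in CPE. Dkk3, the divergent member of its family and one that does not bind Lrp5 or Lrp6 in the way Dkk1 does, was at -3.19, -3.95 and -3.10 in mice 1, 2 and 3, with a mean of -3.41 ± 0.20 (SE, n = 3, adjusted p = 2.71e-05), or 10.6-fold. The probe (chr7:111908495-111908554, - strand, mm8) was well above background in CPE and in the reference on every array, at percentiles of 75.8 to 85.7 in CPE, so its CPE signal was lower than the reference and still in the moderate class. Dkk2 was at -2.79, -2.32 and -2.68, with a mean of -2.60 ± 0.17 (adjusted p = 3.66e-05). Its probe (chr3:132116699-132116758, + strand, mm8) was well above background in CPE on no array. The bound on its mean ratio was 6.03-fold, beside a measured mean fold of 6.06, and mouse 2, at -2.32, was closer to the reference. With the scanner software's own ratio the mean of Dkk2 was -5.11, so its size has no order against Dkk3 or Sfrp2. All 3 mice were past 2-fold for both genes.

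The rest of this group gave little. Dkk1, the classical inhibitor of Lrp5 and Lrp6, was well above background in CPE on no array and in the reference on 2 of 3 by both probes, and was not tested. Dkk4 and Kremen2 were not tested either. Kremen1 had a tested probe at -0.21, -0.25 and -0.46 (mean -0.31, adjusted p = 0.152) and a brighter probe, not tested, at 1.05, 0.67 and 0.45, on opposite sides of 0 in every mouse.

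Several of the lower genes are also known from connective tissue and eye. The stroma and fibroblast markers moved in the same direction: 5 of 7 were lower in CPE (Dcn, Col3a1, Lum, Col1a2 and Col1a1), with a summed level of 21017 to 23934 in CPE against 117838 to 136736 in the reference, while Pdgfra at 0.65 and Pdgfrb at 0.62 were not called. All 7 were well above background in CPE on all arrays, and 6 were in the high class. Of 7 endothelial markers 1 was lower (14.3%), and of 7 macrophage markers 3 were lower (42.9%), beside 11.1% of all genes tested. The endothelial share was thus near that of all genes. The part of these cells, and of RPE and retinal cells, in the lower levels of Dkk3, Dkk2, Sfrp2, Sfrp4, Fzd1, Wnt10a, Rspo1 and Rspo2 was not tested, nor was that of ependymal cells in the higher levels of Lef1, Rspo4, Fzd2 and Sfrp5.

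In the cytoplasm, no gene was called. The Dishevelled genes Dvl1 and Dvl2, which carry the signal from the receptors, were above 0 in every mouse by each tested probe. A second probe of Dvl1 lay nearest to the 2-fold limit, at 1.57, 0.57 and 0.85 with a mean of 0.995 (adjusted p = 0.00883). It was past the limit without mouse 2 at 1.21 and without mouse 3 at 1.07. The brightest probe of that gene was at 0.74, 0.85 and 0.20 (mean 0.60, adjusted p = 0.0336). Dvl2 was at 0.69, 1.06 and 0.13 (mean 0.63, adjusted p = 0.0425), and Dvl3 was not tested. The scaffold Axin1 was at 0.42, 0.30 and 0.46 (mean 0.39, adjusted p = 0.0742). Axin2, a feedback inhibitor often used as a readout of beta-catenin signaling, was at -0.60, 0.75 and -0.37 in the 3 mice, so mouse 2 was higher than the reference and mice 1 and 3 lower (mean -0.07, 95% interval -0.68 to 0.53).

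Of the TCF/LEF factors, the DNA-binding partners of beta-catenin, Lef1 was higher in CPE and the others were not called. The brightest Lef1 probe had log2 ratios of 2.59, 2.82 and 1.73, with a mean of 2.38 ± 0.23 (SE, n = 3, adjusted p = 0.000216), or 5.22-fold, the largest upward difference of the 52 probes. It lay at percentiles of 89.1, 91.9 and 86.2 in CPE. Tcf7 was at 0.00, 0.32 and 0.16 (95% interval of the mean -0.20 to 0.52) and Tcf7l2 at -0.05, 0.02 and -0.40 (95% interval -0.52 to 0.23), intervals that do not reach a 2-fold change in either direction.

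The 3 probes of Lef1 did not give the same ratio. The called probe lies at chr3:131213273-131213332, a second at chr3:131194088-131212249, which spans a splice junction, and the last at chr3:131106293-131106352 (all + strand, mm8), 107.0 kb before the called probe. The second was at 1.17, 0.37 and 0.29 (mean 0.61, adjusted p = 0.0499), above 0 in every mouse but under 2-fold. The last was at 0.06, 0.02 and -0.20 and was not tested, being well above background in each channel on 1 array only, so it sets no limit on the other ratios. The called probe is the one nearest the 3′ end of the gene. Which transcripts the probes detect was not tested.

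The Lef1 windows of the first and last starts in the RefSeq table are printed because the gene has several starts and its probes differ (GRCm38.p6, + strand, 250 bases before each start, 5′ to 3′). The upstream window is chr3:131110047-131110296 and the downstream window chr3:131156044-131156293. The downstream window holds the TCF/LEF core, in capitals, at 180 and 120 bases before its start, and the upstream window does not hold it. These positions are on another build than the probes and cannot be set against them.
Lef1 upstream start: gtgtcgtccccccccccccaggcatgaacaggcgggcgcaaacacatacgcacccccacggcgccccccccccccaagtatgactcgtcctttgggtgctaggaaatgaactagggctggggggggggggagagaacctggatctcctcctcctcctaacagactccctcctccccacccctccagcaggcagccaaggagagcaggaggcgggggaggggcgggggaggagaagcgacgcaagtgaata
Lef1 downstream start: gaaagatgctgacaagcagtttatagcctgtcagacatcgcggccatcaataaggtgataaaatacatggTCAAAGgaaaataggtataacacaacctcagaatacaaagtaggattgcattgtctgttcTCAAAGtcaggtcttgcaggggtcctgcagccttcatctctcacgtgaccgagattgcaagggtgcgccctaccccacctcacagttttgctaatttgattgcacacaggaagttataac

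**Figure D3:**
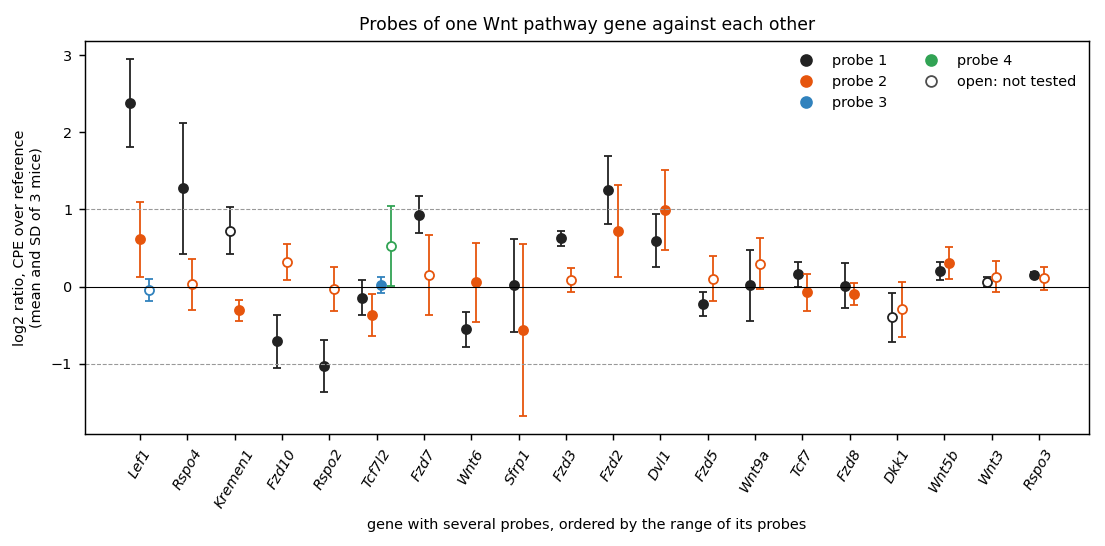
Mean log2 ratio of CPE over reference (y axis, with the SD of 3 mice as error bars) for each probe of the 20 Wnt pathway genes that have several probes, ordered by the range between their probes. Filled symbols were tested, open symbols were too dim, and dashed lines mark a 2-fold change. Lef1 has the widest range, from -0.04 to 2.38.

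Probes of a gene were in several cases not interchangeable. Of the 56 genes, 36 had 1 probe and 20 had several, and 9 of those had more than 1 tested. Of the 9, Lef1 and Fzd2 had a called and an uncalled probe, none had probes called in opposite directions, and for 5 (Tcf7l2, Wnt6, Sfrp1, Tcf7 and Fzd8) the tested probes had means on both sides of 0, none of them called.

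The median SD between mice was 0.29 over the 52 probes, beside 0.26 over all probes tested. The median deviation of a mouse from the mean of the other mice was 0.09 in mouse 1, 0.13 in mouse 2 and -0.20 in mouse 3 over the 52 probes, beside 0.07, 0.08 and -0.12 over all probes tested. Mouse 3, the mouse with the most probes above background, thus lay lower than the other mice on average. This was visible in Lef1, Rspo4, Fzd2, Sfrp5 and Dvl2, each of which was lowest in mouse 3.

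**Figure D4:**
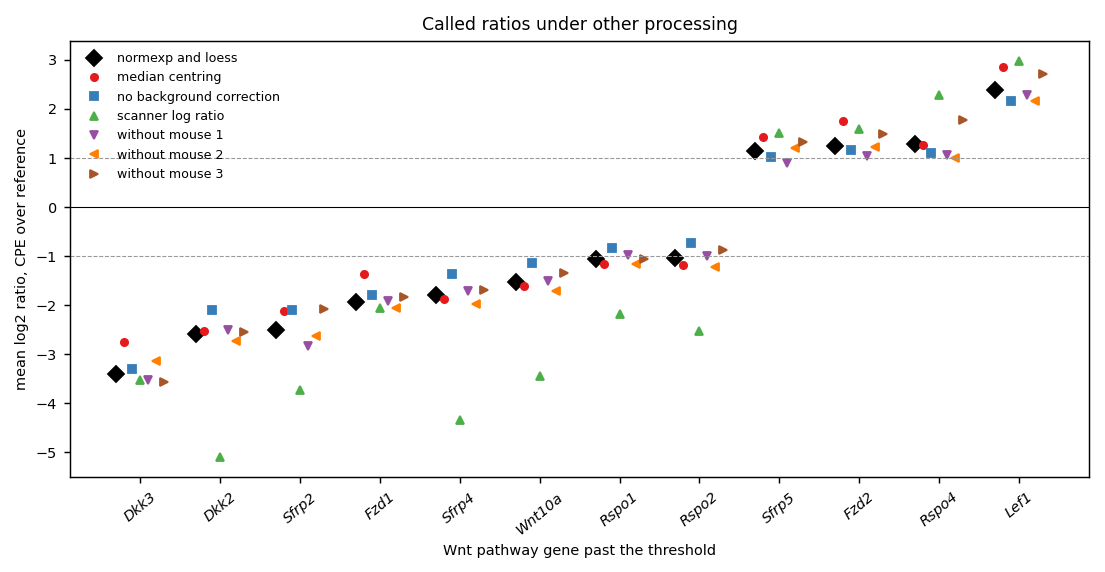
Mean log2 ratio of the 12 called Wnt pathway probes (x axis, ordered by the main value) under the main processing (black diamonds) and 6 alternatives, with dashed lines at a 2-fold change. No called ratio crosses 0, and the scanner software's own ratio (green) is farther from 0 for dim probes such as that of Dkk2.

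The other genes of the pathway were taken from 5 lists of 134 genes in all, with 1 probe per gene and a few genes in 2 lists. Of these, 132 were on the array and 120 were tested. Of the 120, 17 (14.2%) were higher in CPE, beside 7.98% of all genes, and 14 (11.7%) were lower, beside 11.1%. Their median log2 ratio was -0.03, beside -0.04 over all genes. With median centring, 26 were higher and 9 lower. Over all probes, the share higher went from 7.09% to 14.5% and the share lower from 10.2% to 7.13%.

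Among 22 tested genes of Wnt secretion and the cell surface, 3 were higher (13.6%) and 3 lower (13.6%), with a median log2 ratio of -0.07. For this and the next lists, the shares over all genes tested were 7.98% higher and 11.1% lower. Sostdc1, a secreted protein that binds both BMPs and Lrp co-receptors, was higher at 2.89, 3.23 and 3.29 (mean 3.14 ± 0.16, SE, n = 3, adjusted p = 1.59e-05), at a percentile of 99.9 in CPE. The others were Ptk7, a receptor of the planar polarity branch, at a mean of 1.76, and the glypican Gpc4 at 1.70. The lower genes were the glypican Gpc3 at -2.86, the Wnt inhibitor Apcdd1 at -1.82 and Lypd6 at -1.77. Wls, the carrier that brings Wnt ligands to the cell surface, was at -0.72, -0.48 and -0.52 (mean -0.57, adjusted p = 0.0205), under 2-fold.

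Among 29 tested genes of the destruction complex and cytoplasm, 1 was higher (3.45%) and 6 lower (20.7%), with a median of -0.37. Gsk3a was higher at 1.98, 1.63 and 1.19 (mean 1.60, adjusted p = 0.000597) and its paralogue Gsk3b lower at -0.94, -2.07 and -1.21 (mean -1.41, adjusted p = 0.00265), so that these kinases of beta-catenin were called in opposite directions. Apc, the scaffold of the complex, was lower at -1.44, and Cxxc4 at -1.33. Ctnnb1, which encodes beta-catenin, was at -0.72, -0.59 and -0.43 (mean -0.58, adjusted p = 0.0205), under 2-fold and in the high class in CPE.

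Of 23 nuclear cofactors, 3 were higher (13.0%) and none lower, with a median of 0.24. They were Tle5 at 2.25 and Tle3 at 1.04, which belong to the Groucho family, and Bcl9l, a beta-catenin coactivator, at 1.52. Of 32 genes of the planar polarity and calcium branch, which acts without beta-catenin, 7 were higher (21.9%) and 2 lower (6.25%), with a median of 0.06. The largest were Fuz at 2.38, Celsr1 at 1.84 and Intu at 1.70, and the lower genes were Mapk8 at -1.38 and Camk2b at -1.20. Fuz and Intu are also known for the assembly of cilia. Of the cilium genes among the ependymal markers, Foxj1, Tekt1 and Rsph1 were higher and Dnah5 was not. The part of ciliated cells in this list was not tested.

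Known targets and feedback genes of TCF/LEF factors went both ways: of 20 tested, 3 were higher (Msx1 at 2.86, Msx2 at 1.47 and Tnfrsf19 at 1.37) and 4 lower, with a median of 0.04. Msx1 is also 1 of the CPE markers counted above, so its call is no separate observation. The lower genes were the glucose transporter Slc2a1 at -2.27, Ccnd1 at -1.97, Cd44 at -1.87 and Apcdd1, which also stands in the surface list. Of the feedback genes, Rnf43 was at 0.95, 1.48 and 0.21 (mean 0.88, adjusted p = 0.0229) and Nkd1 at -0.57, 0.04 and -0.68 (mean -0.40, adjusted p = 0.129), neither called.

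**Figure D5:**
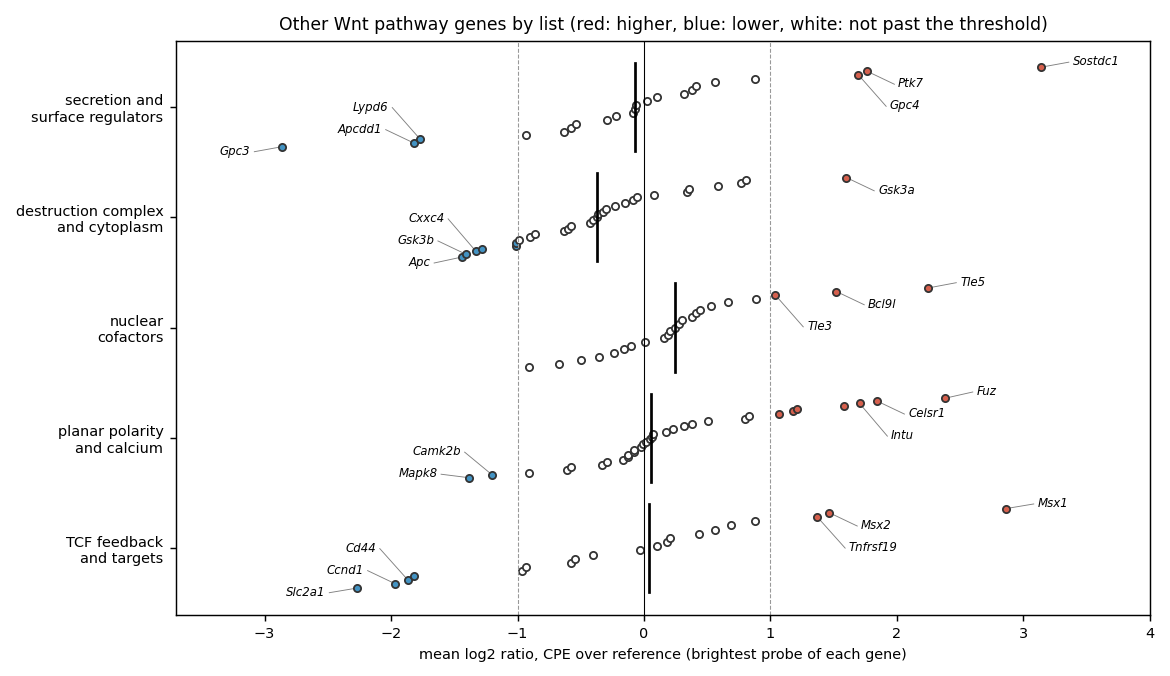
Mean log2 ratio of CPE over reference (x axis) of the 120 other Wnt pathway genes tested, in 5 lists. Each point is 1 gene (a gene that stands in 2 lists is drawn in both), the thick bar is the list's median, dashed lines mark a 2-fold change, red and blue are called higher and lower, and up to 3 genes each way are named. Sostdc1 is the farthest right at 3.14 and Gpc3 the farthest left at -2.86.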

How the data were processed

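Agilent Feature Extraction 9.5.3.1 was used by the authors to make the deposited scanner tables, which hold per spot the intensity of both channels on a linear scale, local background, flags and a log10 ratio, which per the file headers is processed red over green. A deposited series table holds log2 values that the authors had normalized between arrays with Aquantile in R 2.14.0. Its rank correlation with the CPE channel was 0.998, 0.998 and 1.000 on the 3 arrays, so it holds CPE levels.

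Mean intensities were corrected with normexp (offset 50) and normalized by loess within each array in R 4.3.3 with limma 3.58.1. Spots that were controls or outliers were dropped, and replicate spots of a probe averaged. An intercept-only limma model tested the log2 ratio of CPE over reference against 0, with Benjamini-Hochberg adjustment over all probes tested. The normexp offset draws ratios of dim probes toward 0. The reference was 1 RNA, so its biological spread is not in the error, and 3 arrays limit the precision. Percentiles used log2 intensities with no background correction, after Aquantile.

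The brightest probe over both channels stands for a gene. Every member gene is counted. Named with values per mouse were called genes of each role, up to 6, genes in the high class, with a bound over 2-fold or with probes that disagreed, and up to 3 genes each way of the other lists. Genes named besides these were chosen after their values were seen. The members and all lists were chosen with earlier results of these data known. Alternatives were the scaling, background correction, the filter on dim probes, array weights, limma's treat, and each mouse left out. The test was checked on simulated data, only for probes that were not dim in CPE or in the reference. That check does not cover the lower calls that passed the filter through the reference channel alone. The probe coordinates are those of the scanner tables on mm8, and without an annotation of mm8 no exon or intron is stated. Names of 69 of the 79 probes matched the RefSeq table by accession.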

Additional observations from a re-analysis of the deposited data

How the results depend on the processing

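The ratio within each array already pairs CPE with the reference, and no further pairing was possible because the 3 arrays form 1 group. No called ratio changed sign under any alternative. The main processing called 12 Wnt pathway probes, 4 higher and 8 lower. Median centring in place of loess gave 9 of 52 higher, beside 14.5% of all probes. The scanner software's ratio gave 21 of 52 called, 9 of them higher, beside 26.2% of all probes called. Restricted to the 29 probes with CPE and reference both well above background on every array, 6 were called and 2 of those were lower. Of all probes so restricted, 20.3% were called. limma's treat against a 2-fold change called 6 of 52, 1 higher and 5 lower, beside 5.47% of all probes. Leaving out each mouse gave 8 to 15 calls, with 2 to 6 higher and 6 to 9 lower, beside 15.4% to 19% of all probes called. The lowest Wnt pathway counts were without mouse 1. Lef1, Dkk3 and Fzd1 were called under all 10 alternatives, and Dkk2, Sfrp2 and Sfrp4 under all 9 that tested them. Fzd2 and Wnt10a were lost under treat alone, at an adjusted p of 1 and 0.172, Sfrp5 and Rspo4 under treat and without mouse 1, and Rspo1 and Rspo2 also without background correction, at -0.83 and -0.74. For the other pathway genes, median centring gave 26 higher and 9 lower in place of 17 and 14. The shares over all probes moved the same way. Leaving out a mouse gave 14 to 20 higher and 13 to 16 lower among these genes. The high class held 2 probes, 4 after loess and Aquantile, 0 when ranked only among probes well above background on all arrays, where fewer probes are ranked, and 3 to 4 when a mouse was left out. The cause of the other changes was not tested. Of the 79 probes, 27 were too dim to be tested in the main processing, and without the filter on dim probes all 79 were tested and the same 12 were called, 4 higher and 8 lower.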
